A study of Mus musculus with 9 samples.

Results

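The genes described here are 9 mouse genes that encode plasma proteins of the acute phase response, namely the serum amyloid A genes Saa1, Saa2 and Saa4, the orosomucoid genes Orm1 and Orm2, haptoglobin (Hp), hemopexin (Hpx), serum amyloid P (Apcs) and lipocalin 2 (Lcn2). They were chosen by symbol, and each matched 1 entry among the 55335 genes of the liver RNA-seq table. The livers came from 9 B6D2F2 mice aged 20 weeks that had fasted for 4 h, with 3 mice in each of 3 groups. In NC-chow the mice were conceived naturally. In IVF-chow they came from in vitro fertilization with transfer of fresh 2-cell embryos, and in FET-chow from in vitro fertilization with 2-cell embryos that were slow-frozen, thawed and then transferred. According to the study's methods the sequenced mice were males on normal chow, and both transfer groups were carried by pseudopregnant ICR females, so that conception in vitro, embryo transfer and the strain of the recipient cannot be told apart in a comparison with NC-chow. Mice are named by their group and by the number in the labels, which runs 1, 5 and 6 in NC-chow and 2, 3 and 4 in the other groups. The labels do not say which mice shared a litter.

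The acute phase response is the change in the liver's secreted proteins that follows infection or injury. Cytokines of the interleukin 6 family act on hepatocytes mainly through STAT3, and interleukin 1 acts through NF-kB and C/EBP factors. Serum amyloid A 1 and 2 rise by orders of magnitude in such a response and are low at rest, whereas serum amyloid A 4 is made constitutively and travels with high-density lipoprotein. Haptoglobin binds free hemoglobin and hemopexin binds free heme, and both are abundant at rest. Orosomucoids carry small lipophilic molecules in plasma. Serum amyloid P is a pentraxin and the mouse's more responsive relative of C-reactive protein. Lipocalin 2 binds bacterial siderophores and is made by hepatocytes and neutrophils. In bulk liver, fewer hepatocytes and less RNA per hepatocyte cannot be told apart.

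The files give FPKM, fragments scaled by transcript length and by library size, so levels of different genes can be set beside each other per length. Nuclear protein-coding genes held only 4.4 to 29.3% of the FPKM of a library, and 3 non-coding entries alone held 3.5 to 61.9%. The values of the 9 genes are therefore also given as rescaled FPKM, the FPKM divided by the library's sum over nuclear protein-coding genes and multiplied by 1000000. Depth was read from the spacing of low FPKM values and came to about 2000000 to 2910000 fragments in FET-chow, 3860000 to 8350000 in IVF-chow and 6580000 to 13250000 in NC-chow, so low genes were measured least precisely in FET-chow. These depths are estimates, since 42.7 to 50.9% of low values lay on the expected steps, against 18% by chance. Of 8 hepatocyte markers, which included Alb, Apoa1 and Ttr, all were tested, and their sum was 103623 to 133611 rescaled FPKM in NC-chow, 82262 to 129569 in IVF-chow and 91454 to 113177 in FET-chow.

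The serum amyloid A genes lie together on chromosome 7. In the GRCm38 annotation Saa4 is at chr7:46727998-46732603 on the minus strand, Saa1 at chr7:46740497-46742980 on the minus strand and Saa2 at chr7:46751790-46754313 on the plus strand. The promoter sequences of Saa1 and Saa2 are shown because this pair moved together in 1 mouse, and that of Saa4 because its level is set apart from theirs. Each window runs 5′ to 3′ from 250 to 51 bases before the start of the gene in RefSeq on GRCm38.p6, at chr7:46743031-46743230 (minus strand) for Saa1, chr7:46751583-46751782 (plus strand) for Saa2 and chr7:46732654-46732853 (minus strand) for Saa4. Capitals mark matches on either strand to the C/EBP letters TTNNGNAA, the NF-kB letters GGA and TTCC with any 3 bases between them, the STAT letters TTCNNNGAA or the interleukin 6 response letters CTGGGAA.
Saa1: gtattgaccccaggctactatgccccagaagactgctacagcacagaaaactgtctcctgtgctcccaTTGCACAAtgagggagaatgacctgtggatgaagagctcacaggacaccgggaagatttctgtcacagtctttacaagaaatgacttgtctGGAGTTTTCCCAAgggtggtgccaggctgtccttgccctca
Saa2: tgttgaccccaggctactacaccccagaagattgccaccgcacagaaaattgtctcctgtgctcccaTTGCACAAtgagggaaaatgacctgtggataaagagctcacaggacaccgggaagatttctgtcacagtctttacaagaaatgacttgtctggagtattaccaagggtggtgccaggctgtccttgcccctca
Saa4: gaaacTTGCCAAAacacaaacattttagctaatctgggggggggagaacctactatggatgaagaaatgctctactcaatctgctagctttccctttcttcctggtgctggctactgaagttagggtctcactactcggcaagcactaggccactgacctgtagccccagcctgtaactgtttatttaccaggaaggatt

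The Saa1 window held 2 C/EBP matches and 1 NF-kB match, and the second C/EBP match overlapped the NF-kB match. The Saa2 window aligned to it over 199 bases with 188 identical (94.5%) and 11 substitutions. Of these, T165A and C168A, counted from 1 at the 5′ end of the Saa1 window with the Saa1 base first, both change fixed letters of the second C/EBP match of Saa1, and C168A also changes a fixed letter of its NF-kB match. Neither match was found in Saa2. The Saa2 and Saa4 windows each held 1 C/EBP match. Among 32851 promoters cut to the same 200 bases, 32.3% held the C/EBP letters, 2.5% the NF-kB letters, 5.8% the STAT letters and 7.2% the interleukin 6 response letters. The letters were chosen with the sequences in view, and a match is a description of the window and not a measured site.

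The orosomucoid genes form a second cluster, with Orm1 at chr4:63344560-63348163, its paralog Orm3 at chr4:63356162-63359511 and Orm2 at chr4:63362449-63365878, all on the plus strand. Apcs lies at chr1:172893961-172895041, Hp at chr8:109575128-109579172, Hpx at chr7:105591613-105600137 and Lcn2 at chr2:32384633-32388252, each on the minus strand. The windows of Orm2 at chr4:63362199-63362398 (plus strand) and Apcs at chr1:172895105-172895304 (minus strand) are shown because 2 groups did not overlap for each of these genes, on both scales for Apcs and on rescaled FPKM for Orm2, although neither passed the test. They are cut and marked in the same way.
Orm2: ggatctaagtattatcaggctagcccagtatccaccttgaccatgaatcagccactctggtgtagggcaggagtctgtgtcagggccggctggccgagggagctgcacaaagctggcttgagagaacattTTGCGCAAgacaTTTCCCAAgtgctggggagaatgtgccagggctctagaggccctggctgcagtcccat
Apcs: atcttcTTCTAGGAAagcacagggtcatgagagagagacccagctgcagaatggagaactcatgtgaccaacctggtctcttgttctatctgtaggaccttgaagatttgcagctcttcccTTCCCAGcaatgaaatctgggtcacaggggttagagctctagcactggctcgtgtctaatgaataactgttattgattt

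The Orm2 window held 2 C/EBP matches. The Apcs window held 1 STAT match and 1 match to the interleukin 6 response letters on the opposite strand, and no C/EBP letters. The Hpx window held 2 C/EBP matches and the Lcn2 window 1. Reads of close paralogs could be assigned to either copy. Transcripts of Saa1 and Saa2 shared 94.4% of aligned bases with an identical run of 99 bases, and those of Orm1 and Orm2 shared 91% with a run of 141 bases. Values of either member of these pairs are uncertain to the extent that the counting split them. Saa1 and Saa4 shared 66.2%, with no identical run above 15 bases.

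Haptoglobin, orosomucoid 1 and hemopexin made up nearly all of the summed level. Together they held 86.2 to 94.8% of the FPKM of the 9 genes in each mouse. The 9 genes summed to 2.55, 1.68 and 1.75% of nuclear protein-coding FPKM in NC mice 1, 5 and 6, to 1.33, 2.18 and 2.46% in IVF mice 2, 3 and 4, and to 1.82, 2.99 and 1.71% in FET mice 2, 3 and 4. The means were 1.99% ± 0.48 (SD, n = 3) in NC-chow, 1.99% ± 0.59 in IVF-chow and 2.17% ± 0.71 in FET-chow, and the groups overlapped. By mean FPKM over the 9 mice the order was Hp (844.5), Orm1 (739), Hpx (723), Saa4 (72.6), Orm2 (55.8), Apcs (28.1), Saa1 (8.65), Saa2 (7.77) and Lcn2 (0.808). The first 3 did not differ beyond their spread, and the place of Saa1 and Saa2 rests on NC mouse 1. The order of Saa4, Orm2 and Apcs varied too. In FET-chow the mean was 61.8 FPKM for Orm2 and 49.5 for Saa4, and in NC mouse 5 Apcs (54.3) was above Orm2 (32.9).

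**Figure D1:**
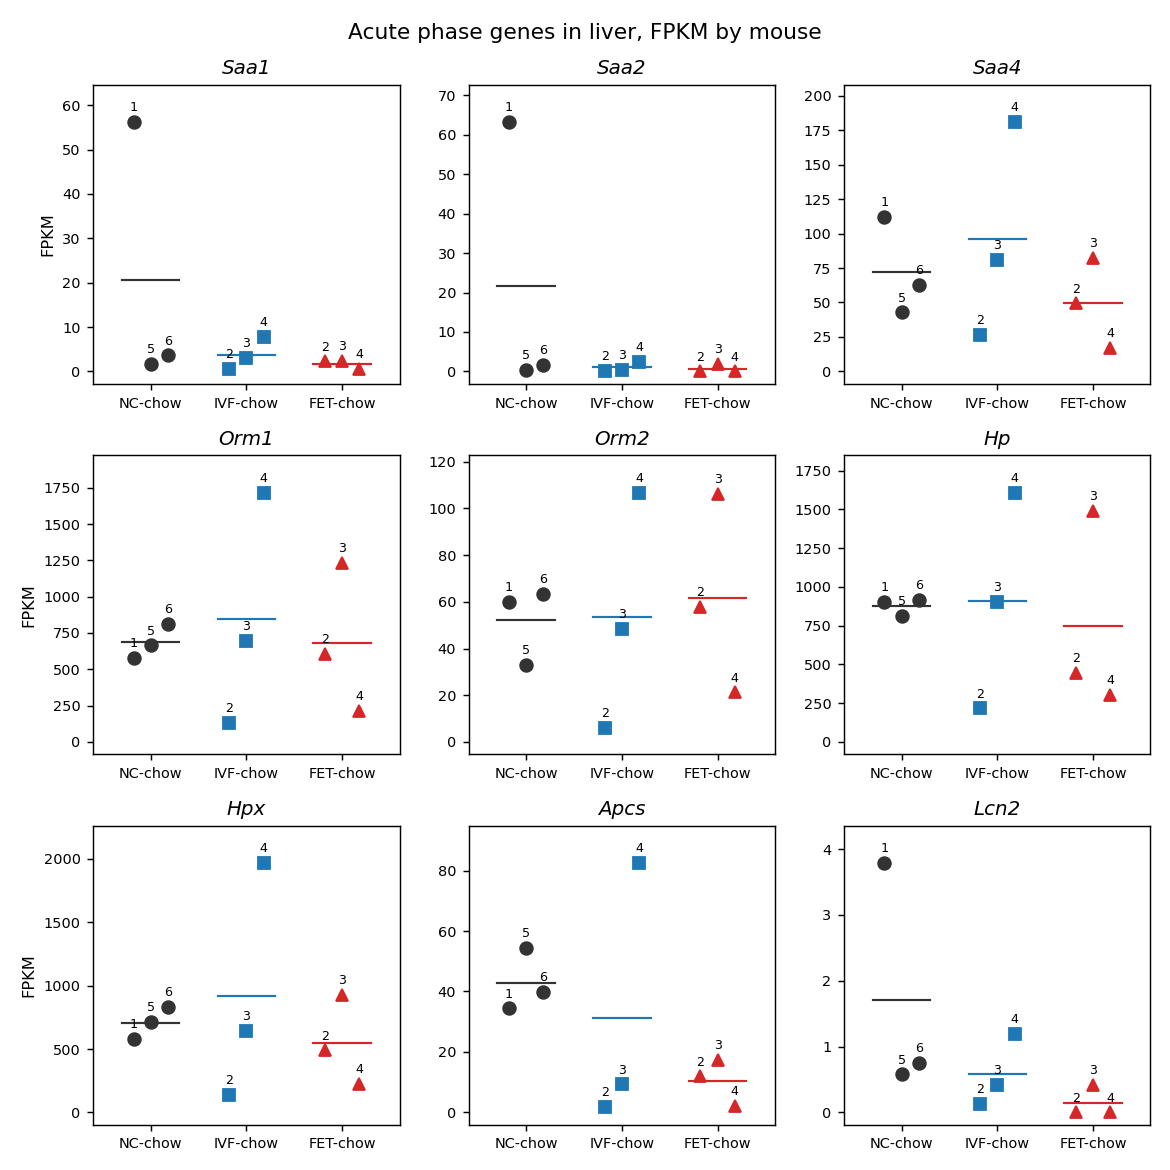
FPKM of each gene (linear axis, 1 panel per gene) in the 3 mice of NC-chow, IVF-chow and FET-chow, with the mouse number at each point and a line at the group mean. Saa1 reached 56.1 FPKM and Saa2 63.1 FPKM in NC mouse 1, while Orm1, Hp and Hpx were highest in IVF mouse 4 and lowest in IVF mouse 2.

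Saa1 and Saa2 were high in 1 mouse. Saa1 was at 56.1, 1.78 and 3.58 FPKM in NC mice 1, 5 and 6, at 0.533, 3.05 and 7.68 FPKM in IVF mice 2, 3 and 4, and at 2.24, 2.33 and 0.559 FPKM in FET mice 2, 3 and 4. Saa2 was at 63.1, 0.334 and 1.59 FPKM in the NC mice, at 0.144, 0.449 and 2.38 FPKM in the IVF mice, and at 0, 1.85 and 0 FPKM in the FET mice. NC mouse 1 thus stood 7.31 times above the next mouse for Saa1 and 26.5 times for Saa2, and the groups overlapped among the other 8 mice. These levels come from about 225 fragments of Saa1 and 271 of Saa2 in NC mouse 1, against 1 to 28.9 and 0 to 13.7 fragments in the others. In FET mice 2 and 4 the limit that a count of 0 allows, taken as 3 fragments, was 2.3 and 1.58 FPKM for Saa2. Saa2 in NC mouse 5 and IVF mice 2 and 3 lay below both limits, so a difference from those mice was not detectable at this depth. These limits cover counting error only.

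Rescaling widened the gap. Saa1 came to 598, 12.9 and 22.9 rescaled FPKM in the NC mice, 13.6, 27.9 and 33.3 in the IVF mice and 24.5, 18 and 12.3 in the FET mice, so NC mouse 1 was 17.9 times above the next. Saa2 was 673 in NC mouse 1 and 0 to 14.3 in the other 8 mice. Saa4 was less extreme, at 1192, 309.97 and 399 rescaled FPKM in the NC mice, 669, 741 and 785 in the IVF mice and 540.5, 637 and 371 in the FET mice, and NC mouse 1 exceeded the next by 1.52 times. Within the mouse, Saa1 and Saa2 held 51.6% of the FPKM of the 3 serum amyloid A genes in NC mouse 1 and 2.5 to 7.6% elsewhere.

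Lipocalin 2 followed the same mouse at a low level. It was at 3.78, 0.576 and 0.754 FPKM in the NC mice, 0.131, 0.412 and 1.2 FPKM in the IVF mice, and 0, 0.414 and 0 FPKM in the FET mice. With a mean under 1 FPKM it did not pass the filter for the test. NC mouse 1 was 3.16 times above the next mouse in FPKM and 7.77 times in rescaled FPKM, from about 22.8 fragments against 0 to 9.1 in the others. On rescaled FPKM it was 40.4, 4.17 and 4.81 in the NC mice, 3.35, 3.77 and 5.19 in the IVF mice and 0, 3.2 and 0 in the FET mice. All FET mice lay below all NC mice on both scales, as in 17.1 and 11.5% of the tested genes, and below all IVF mice on rescaled FPKM, as in 6.01%. The FET values stayed under the limit of 3 fragments, 1.13 to 1.64 FPKM. NC mice 5 and 6 and IVF mice 2 and 3 were also below each of these limits. A difference from those mice was therefore not detectable at this depth. The shares cover genes that passed the filter, which Lcn2 did not.

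The paralog Saa3, known from macrophages and fat, did not share this pattern. Its highest value was 5.58 FPKM in FET mouse 2, against 1.85 FPKM in NC mouse 1. Across the 9 mice Pearson's r of log2(FPKM + 1) was 0.95 for Saa1 with Saa2, 0.95 for Saa1 with Lcn2 and 0.95 for Saa2 with Lcn2. Without NC mouse 1 these values were 0.77, 0.83 and 0.85, and on rescaled FPKM 0.39, 0.32 and 0.74 over 8 mice. The points share library depth and protein-coding share, and the values are a description.

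**Figure D2:**
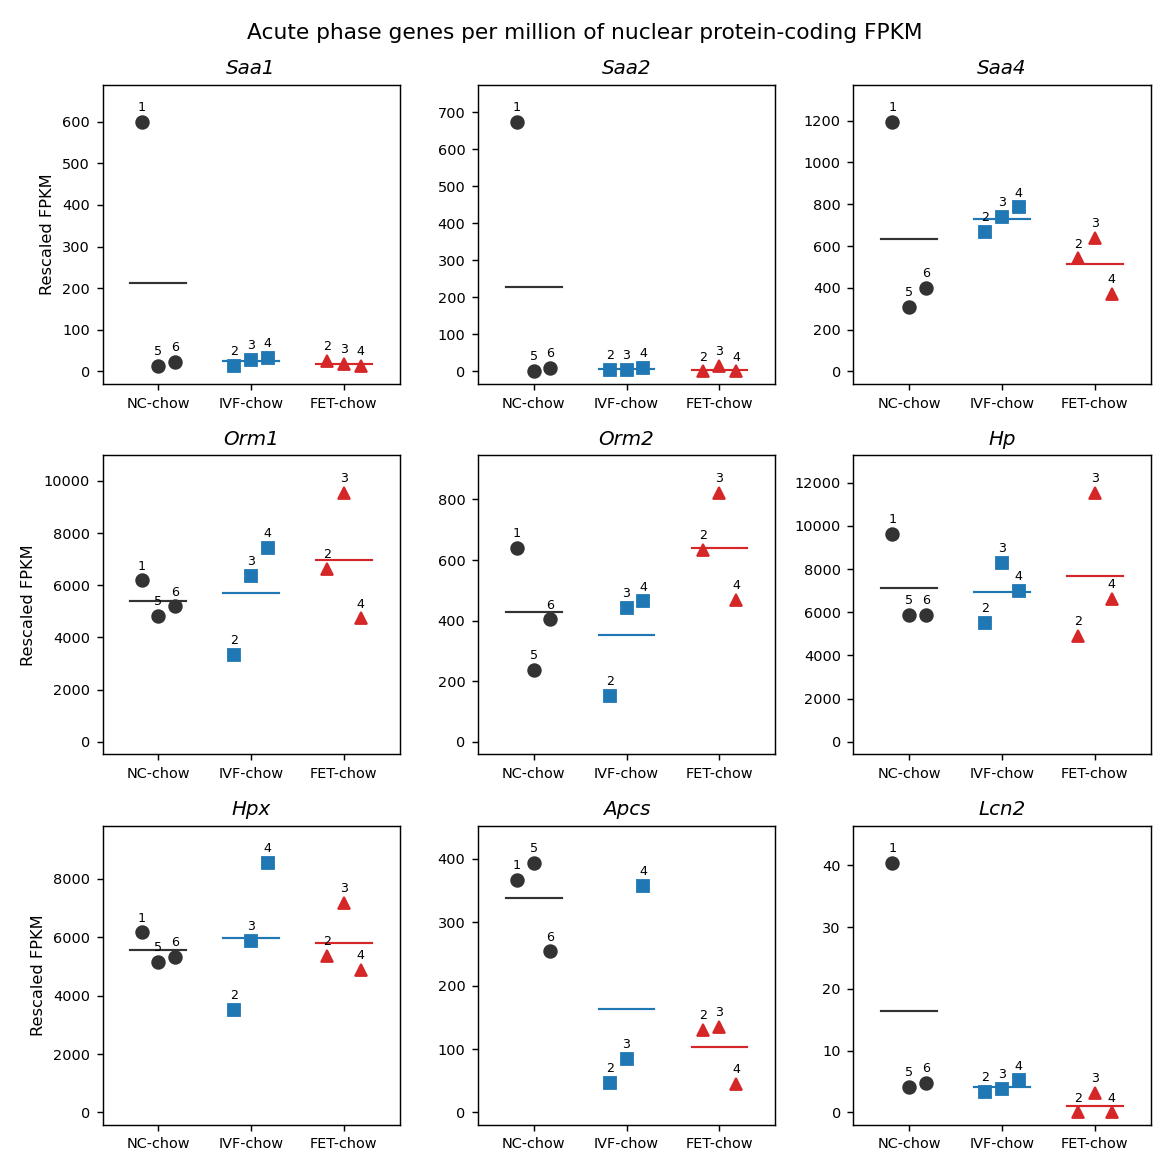
Rescaled FPKM (FPKM per 1000000 of the nuclear protein-coding sum, linear axis) of each gene in the 3 mice of each group, with mouse numbers and group means as lines. NC mouse 1 stands at 598 for Saa1, 673 for Saa2 and 40.4 for Lcn2, Apcs is lower in all FET mice than in all NC mice, and Saa4 and Orm2 separate FET-chow from IVF-chow.

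NC mouse 1 stood apart in other genes too. Among the 8 tested genes, 7 were higher in it than in both other NC mice on rescaled FPKM and 0 were lower than both, where 43.8 and 43.4% of all 6755 tested genes did so. The exception was Apcs, which lay between them. On FPKM the picture differed, and Saa1, Saa2 and Saa4 were higher in NC mouse 1 than in both. Orm2 and Hp then lay between them, and Orm1, Hpx and Apcs were lower than in both. Of 19 tested genes among 20 other positive acute phase genes, 16 were higher than in both and 3 lower on rescaled FPKM. On FPKM Hamp, Mbl2, Ifitm3 and Cp were lower than in both, Crp, Fgb, Mbl1 and Lrg1 lay between, and the others were higher. Itih4 was at 1140 rescaled FPKM against 367 and 383, the lipopolysaccharide-binding protein Lbp at 72.9 against 15.3 and 29.6, and the metalloreductase Steap4 at 111 against 22.4 and 19.9. Hamp, which encodes the iron hormone hepcidin, was lower, at 2882 against 7573 and 8369. Of 10 negative acute phase genes, 6 were lower in NC mouse 1 than in both and 2 were higher on rescaled FPKM. Transthyretin (Ttr) was at 8493 rescaled FPKM in NC mouse 1 against 22992 and 22345, but at 5923 to 10711 in the IVF and FET mice, so here NC mice 5 and 6 stood apart. These 2 libraries also had the highest estimated depths (11850000 and 13250000 fragments) and the lowest share of FPKM in the 3 non-coding entries (3.5 and 5%, against 18.1% or more), and their sheet numbers in the labels lay apart from those of the other 7 mice. Their part in the differences from NC mouse 1 was not tested. Of 14 tested signalling genes, 8 were higher in NC mouse 1 than in both and 5 lower on rescaled FPKM. Stat3 was at 25.5 rescaled FPKM against 9.16 and 11.7, whereas the hepatocyte factor Cebpa was at 75.7 against 207 and 202. This account of NC mouse 1 was chosen after its values were seen and has no test.

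Summed skeletal muscle transcripts were highest in NC mouse 1, as Saa1, Saa2 and Lcn2 were. The genes most like Saa2 across 5737 tested protein-coding genes were Mb (r = 0.96), Saa1 (0.95) and Acta1 (0.95), and those most like Saa1 were Saa2 (0.95), Gm10282 (0.94) and Mylpf (0.93). On rescaled FPKM Mb and Cox6a2, the muscle form of a cytochrome c oxidase subunit, were among the 3 most like both, with r = 0.96 for each with Saa1 and 0.97 and 0.96 with Saa2. Mb encodes myoglobin, Acta1 skeletal alpha-actin and Mylpf a fast muscle myosin light chain. Mb was at 15.95 FPKM in NC mouse 1 and at most 1.21 FPKM in the others, so its r values rest largely on NC mouse 1. Correlations with the muscle genes were not computed without that mouse. The 10 genes of a muscle list, chosen after this was seen, summed to 149.2 FPKM in NC mouse 1 with all 10 above 0. The sum was 35.1 FPKM in IVF mouse 4, 6.44 FPKM in FET mouse 3 and 0 to 1.68 FPKM in the others. IVF mouse 4 had the second highest Saa1 and Saa2 FPKM. On rescaled FPKM FET mouse 3 (14.29) was above IVF mouse 4 (10.35) for Saa2. The summed erythroid transcripts were highest in NC mouse 1 as well, where 3 of 5 markers were highest on rescaled FPKM, while Hbb-bs was highest in FET mouse 2 and Alas2 in NC mouse 5. All 5 were above 0 in every mouse, with sums of 2425 to 9060 rescaled FPKM in NC-chow, 1686 to 2253 in IVF-chow and 3908 to 6292 in FET-chow. Of 10 neutrophil markers the summed level was 1.25 to 3.02 FPKM in NC-chow, 0.3 to 13.5 in IVF-chow and 0.29 to 2.09 in FET-chow, and Ly6g and Mpo were at 0 in all mice. On rescaled FPKM this sum was highest in IVF mouse 4 (58.5) and NC mouse 1 (32.2), the mice with the highest Lcn2. FET mouse 2, with Lcn2 at 0, followed at 22.9. The part of muscle, erythroid and neutrophil transcripts in the Saa1, Saa2 and Lcn2 values was not tested.

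**Figure D3:**
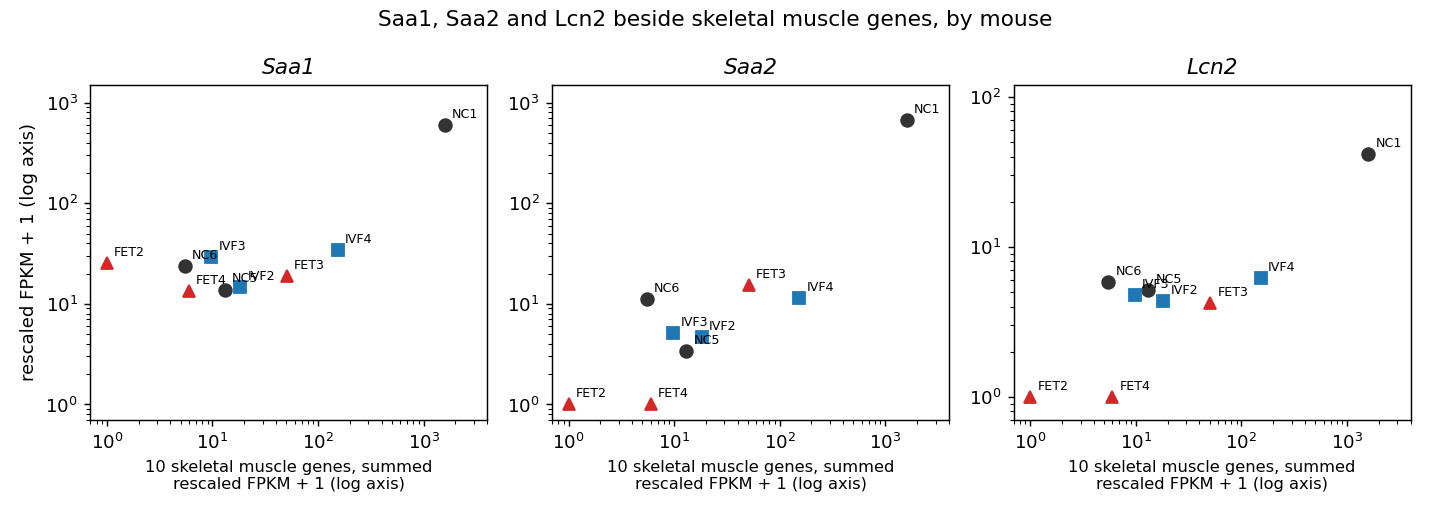
Rescaled FPKM + 1 of Saa1, Saa2 and Lcn2 (vertical, log axis) against the summed rescaled FPKM + 1 of 10 skeletal muscle genes (horizontal, log axis), 1 point per mouse. NC mouse 1 lies far to the upper right of the other 8 mice in each panel, with a muscle sum of 1590.5 rescaled FPKM, followed by IVF mouse 4 at 152.3.

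The abundant genes Orm1, Hp and Hpx varied with the library. Orm1 was at 581, 665 and 812 FPKM in the NC mice, 131, 695 and 1715 in the IVF mice and 604, 1234 and 215 in the FET mice. Hp was at 904, 812 and 918 FPKM in the NC mice, 216, 905 and 1608 in the IVF mice and 447, 1490 and 301 in the FET mice. Hpx was at 578, 712 and 835 FPKM in the NC mice, 138, 643 and 1965 in the IVF mice and 490, 927 and 222 in the FET mice. The NC mice lay close together and inside the range of both other groups for all 3 genes.

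Across the 9 mice r with the log2 protein-coding sum was 0.98 for Hpx, 0.96 for Orm1, 0.92 for Hp and 0.92 for Apcs, and 0.23 to 0.42 for Saa1, Saa2 and Lcn2. After rescaling the spread shrank, and Orm1 was 4811 to 6190 in NC-chow, 3341 to 7445 in IVF-chow and 4731 to 9543 in FET-chow. Hp was 5864 to 9632, 5505 to 8282 and 4898 to 11528 in the same order. Hpx was 5150 to 6163, 3524 to 8531 and 4887 to 7173. Highest over lowest mouse fell from 13.1 to 2.9 for Orm1, from 7.5 to 2.4 for Hp and from 14.2 to 2.4 for Hpx. No gene of the 3 separated the groups on either scale. The correlation of Orm1 with Hpx was 0.98 on log2(FPKM + 1) and 0.89 rescaled, whereas that of Hp with Hpx fell from 0.95 to 0.57. The proteasome subunit Psmb6 was among the 3 genes most like Orm1 and Hpx, with r = 0.99 for each.

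Hp and Hpx encode the scavengers of hemoglobin and heme. The FPKM ratio of Hp to Hpx ran from 0.82 in IVF mouse 4 to 1.61 in FET mouse 3, with overlapping groups and means of 1.27 ± 0.25 (SD, n = 3) in NC-chow, 1.26 ± 0.39 in IVF-chow and 1.29 ± 0.35 in FET-chow. Of 7 genes for receptors and clearance of these plasma proteins, serum amyloid A and lipocalin 2 included, 3 passed the filter (Lrp1, Scarb1 and Hmox1) and 0 were called. Lrp1, the hepatocyte receptor of heme-hemopexin, was at 8.14, 15 and 17.4 FPKM in the NC mice, 3.58, 5.78 and 10.8 in the IVF mice and 3.64, 5.04 and 3.01 in the FET mice. Its FET-chow values lay below all NC-chow values, as those of 17.1% of all genes did, and the limma adjusted p was 0.43. Cd163, the macrophage receptor of haptoglobin-hemoglobin, was at 1 to 1.24 FPKM in NC-chow, 0.066 to 0.6 in IVF-chow and 0 to 1 in FET-chow, under the filter.

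Orosomucoid 2 was higher in FET-chow than in IVF-chow on rescaled FPKM by a narrow margin, without passing the test. Orm2 was at 59.9, 32.9 and 63.3 FPKM in the NC mice, 5.99, 48.2 and 107 in the IVF mice and 57.9, 106 and 21.2 in the FET mice, and the groups overlapped. On rescaled FPKM it was 639, 238 and 404, then 153, 441 and 463, then 634, 822 and 467. All FET mice were then above all IVF mice, although the closest mice stood at 467 and 463, and both groups overlapped NC-chow. Among all genes tested 6.72% were higher in FET-chow without overlap with IVF-chow on this scale. The log2 fold change on rescaled FPKM was 0.96 (SE 0.51, 95% interval -0.18 to 2.11, limma with Benjamini-Hochberg adjusted p = 0.585), so the difference did not pass. On FPKM it was 0.64 (SE 1.08, adjusted p = 1), and it turned to -0.49 without IVF mouse 2 and came to 1.49 without IVF mouse 4. Orm1 was at 0.31 on rescaled FPKM in the same comparison (interval -0.65 to 1.26), and the difference between these 2 fold changes was not tested.

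The ratio of Orm1 to Orm2 FPKM, which does not depend on the scaling, was 9.7, 20.2 and 12.8 in the NC mice, 21.9, 14.4 and 16.1 in the IVF mice and 10.4, 11.6 and 10.1 in the FET mice. FET-chow did not overlap IVF-chow, and NC-chow overlapped both. This ratio was chosen after its values were seen, and how often other gene pairs separate these groups was not computed. The exchange of reads between these paralogs bears on the ratio and was not tested. Their paralog Orm3 was at 77.9, 16.2 and 11.9 FPKM in the NC mice, 5.63, 7.02 and 175 in the IVF mice and 62.6, 19.2 and 0 in the FET mice, with no order by group. It held 0 to 10.9% of the FPKM of the 3 orosomucoid genes.

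**Figure D4:**
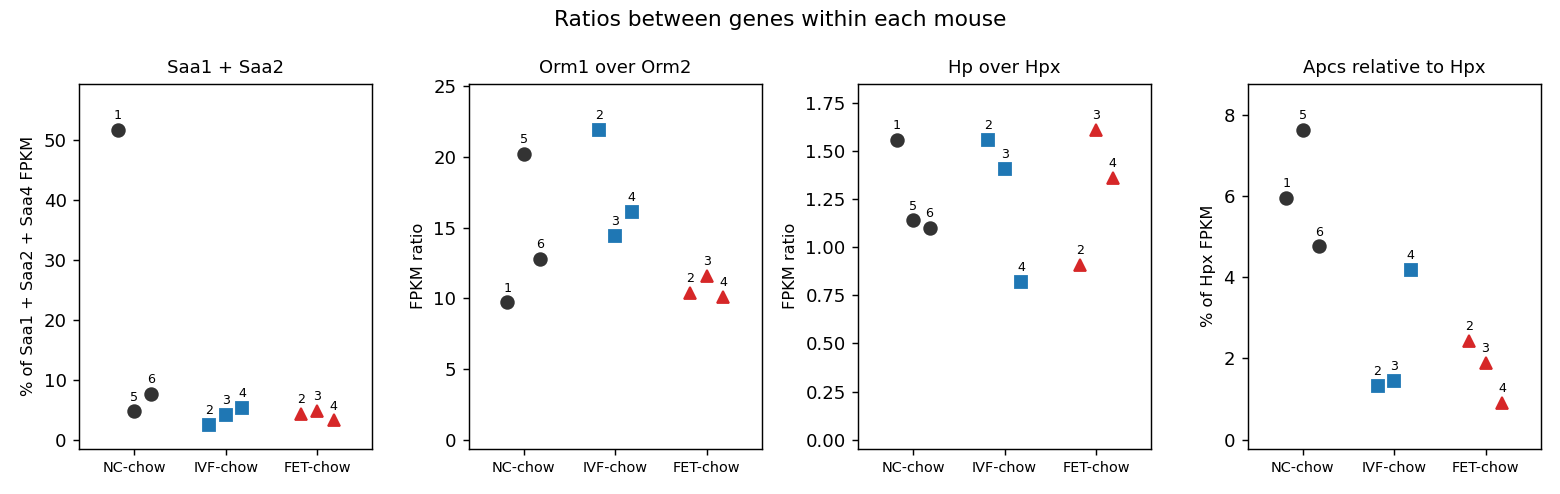
Ratios of FPKM between genes of the same mouse, by group (linear axes, 1 point per mouse with its number). The percentage of serum amyloid A FPKM held by Saa1 and Saa2 is 51.6 in NC mouse 1. The Orm1 to Orm2 ratio is 10.1 to 11.6 in FET-chow and 14.4 to 21.9 in IVF-chow. Apcs relative to Hpx is 4.76% in the lowest NC mouse and 4.19% in IVF mouse 4, the highest of the other groups. Apcs itself overlapped between IVF-chow and NC-chow on both scales. The ratios were chosen after their values were seen.

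Serum amyloid P was lower in FET-chow than in NC-chow on both scales, without passing the test. Apcs was at 34.4, 54.3 and 39.7 FPKM in the NC mice, 1.82, 9.28 and 82.4 in the IVF mice and 11.9, 17.4 and 2.02 in the FET mice. On rescaled FPKM it was 367, 393 and 254 in the NC mice, 46.6, 84.9 and 358 in the IVF mice and 131, 135 and 44.4 in the FET mice. All FET mice lay below all NC mice, and the IVF mice were split, with IVF mouse 4 inside the NC range. Of all genes tested, 17.1% were lower in FET-chow without overlap on FPKM and 11.5% on rescaled FPKM, and Apcs was 1 of 8 tested genes on each. Of the 8, 0 were higher in FET-chow than in NC-chow without overlap, beside 1.98% of all genes on FPKM and 9.99% on rescaled FPKM. Beside Hpx of the same mouse, Apcs was 5.95, 7.63 and 4.76% in the NC mice, 1.32, 1.44 and 4.19% in the IVF mice and 2.44, 1.88 and 0.91% in the FET mice. The value of FET mouse 4 came from about 5.7 fragments, against 219.9 to 624.6 in the NC mice.

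The log2 fold change of Apcs in FET-chow against NC-chow was -2.26 (SE 1.01, 95% interval -4.31 to -0.22, limma with Benjamini-Hochberg adjusted p = 0.358). On rescaled FPKM it was -1.74 (SE 0.66, interval -3.22 to -0.26, adjusted p = 0.245). In the same comparison 6 of 8 hepatocyte markers were negative on each scale, where 74.4% of all genes were on FPKM and 53.6% on rescaled FPKM. The markers had a median of -1.52 on FPKM and -0.9 on rescaled FPKM, beside -0.46 and -0.06 over all genes. On rescaled FPKM 2 of them were lower at an unadjusted limma p under 0.05, where 9.55% of all genes were. The part of these markers in the Apcs value was not tested. Leaving out each mouse in turn gave -2.79 to -1.48 for Apcs, and the direction held there and in the 8 other alternatives. The unadjusted limma p on FPKM was 0.0305. Among the fits with more than 1 mouse in each group, it rose above 0.05 with no filter (0.0877). It also did so without FET mouse 4 (0.198), NC mouse 1 (0.0625) or NC mouse 5 (0.0724). Against NC mouse 1 alone the fold change was -1.98. In IVF-chow against NC-chow the fold change of Apcs was -1.68 (interval -3.72 to 0.36, adjusted p = 1), which became -3 without IVF mouse 4 and -0.56 without IVF mouse 2. Between FET-chow and IVF-chow it was -0.58 (interval -2.63 to 1.46, adjusted p = 1) and turned to 0.73 without IVF mouse 4.

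Setting FET-chow against the natural controls addresses the combined effect of in vitro fertilization, freezing and transfer. At an adjusted p under 0.05 the limma test on log2(FPKM + 1) called 0 of the 8 tested genes, where it called 16 of 6755 genes (0.237%). At an unadjusted p under 0.05 it had 3 lower and 0 higher, where 10.1% of all genes were lower and 127 of 6755 were higher. On rescaled FPKM it had 1 lower, Apcs, where 9.55% of all genes were lower, and the intervals of Saa1 (-3.76 to 0.78) and Saa2 (-4.92 to 0.68) reached across 0. The 3 on FPKM were Saa2 at -2.09 (SE 0.79, adjusted p = 0.274), Apcs as above and Saa1 at -1.81 (SE 0.8, adjusted p = 0.352). Saa2 passed the filter only through NC-chow, with means of 21.7 FPKM there, 0.992 in IVF-chow and 0.616 in FET-chow. Its test and its place among the 3 therefore lend no support to a difference. Saa1 and Saa2 rest on NC mouse 1. Without it their fold changes were -0.48 and -0.39 (adjusted p = 0.784 and 0.797), and against it alone, with its spread taken from the other groups, -4.48 and -5.5 (adjusted p = 0.662 and 0.0396). Without NC mouse 5, Saa2 also passed, at -3.18 (adjusted p = 0.0302). Because the filter admitted Saa2 through NC mouse 1, these passes lend no support to a difference.

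The other 5 genes were at -0.69 (Saa4), -0.59 (Hpx), -0.58 (Hp), -0.32 (Orm1) and 0.03 (Orm2) against a median of -0.46 over all tested genes. Their 95% intervals reached from -2.15 or lower to 1.47 or higher, so sizeable changes in either direction are inside them. Without FET mouse 3 Saa4, Hp and Hpx were at -1.18, -1.25 and -1.08, and without FET mouse 4 at -0.07, -0.1 and -0.06. On rescaled FPKM, where the median over all genes was -0.06, they were at -0.07, 0.05, 0.06, 0.32 and 0.65, and the directions of Hpx, Hp and Orm1 turned. The intervals narrowed to -0.85 to 0.95 for Hpx, -0.89 to 1.01 for Hp and -0.63 to 1.27 for Orm1. The median of the 8 genes was -0.64 on FPKM and -0.01 on rescaled FPKM.

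**Figure D5:**
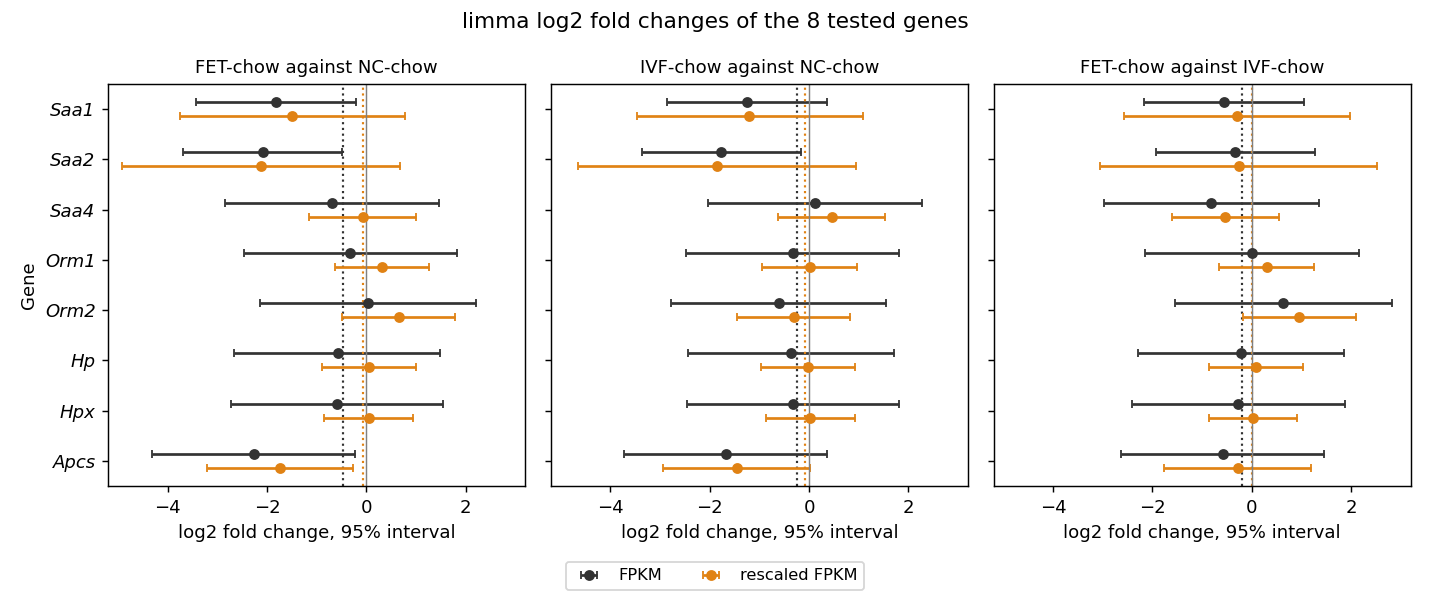
limma log2 fold changes with 95% intervals (horizontal) of the 8 tested genes in 3 comparisons, on log2(FPKM + 1) in black and on rescaled FPKM in orange. Dotted lines mark the median over all 6755 genes of each fit, and the interval leaves out 0 on both scales only for Apcs in FET-chow against NC-chow.

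Setting IVF-chow against the natural controls addresses in vitro fertilization with fresh transfer. It shares its NC mice with the comparison above. It called 0 of 8 tested genes, where it called 0.0592% of all genes, and at an unadjusted p under 0.05 it had 1 lower, Saa2, where 2.86% of all genes were lower. Saa2 was at -1.77 (SE 0.79, adjusted p = 1), Apcs at -1.68 and Saa1 at -1.25 (interval -2.87 to 0.36), and the others between -0.61 (Orm2) and 0.12 (Saa4). Without NC mouse 1 Saa2 was at -0.07 and Saa1 at 0.08. Of the 8 genes 0 separated these groups on either scale, where 5.46% of all genes were lower and 0.77% higher without overlap on FPKM, and 11.3% lower and 4.87% higher on rescaled FPKM.

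The comparison of FET-chow with IVF-chow addresses freezing and thawing before transfer. It called 0 of 8 tested genes at an adjusted p under 0.05, where it called 0.0888% of all genes. At an unadjusted p under 0.05 it had 0 lower and 0 higher, where 2.95% of all genes were lower and 72 of 6755 were higher. The fold changes ran from -0.81 (Saa4) to 0.64 (Orm2), with adjusted p = 1 for each. Saa4 was at -1.53 without IVF mouse 2, -1.3 without FET mouse 3, -0.16 without IVF mouse 4 and -0.19 without FET mouse 4. On rescaled FPKM Saa4 was lower in all FET mice than in all IVF mice, as were 6.01% of all genes, at -0.53 (interval -1.61 to 0.56, adjusted p = 0.768). The Saa4 values of NC-chow spanned both groups. On FPKM 0 of the 8 genes separated FET-chow from IVF-chow, where 2.56% of all genes were lower and 1.27% higher.

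The other acute phase genes were described by lists. Of 20 other positive acute phase genes, 19 passed the filter and 0 were called in any comparison, while in FET-chow against NC-chow 18 had a negative fold change with a median of -0.9, beside -0.46 over all genes. On rescaled FPKM 11 were negative with a median of -0.31, beside -0.06 over all genes. The 4 most abundant were Hamp, C3, Ifitm3 and Fgb. Hamp was at 2882, 7573 and 8369 rescaled FPKM in the NC mice. It was at 9765, 17780 and 15605 in the IVF mice and 6050, 6638 and 5658 in the FET mice. The IVF mice were thus above all others, as 4.87% of all genes were against NC-chow and 6.01% against FET-chow. The share above both groups at once was not computed. The limma adjusted p of Hamp on this scale was 0.855 for IVF-chow against NC-chow and 0.487 for FET-chow against IVF-chow. Summed over the 20 genes, IVF-chow was at 20561 to 30364 rescaled FPKM, NC-chow at 14428 to 16096 and FET-chow at 13187 to 16206. Without Hamp, a choice made after its values were seen, the sum was 9445 to 12584 in IVF-chow, 6856 to 12896 in NC-chow and 7529 to 9568 in FET-chow. IVF-chow then lay within the NC-chow range, and its lowest mouse (9445) lay just under the highest FET mouse (9568). In IVF-chow against NC-chow on rescaled FPKM 7 of the 19 tested genes were negative with a median of 0.15, where 55.9% of all genes were negative with a median of -0.07. In FET-chow against IVF-chow 17 of the 19 were negative with a median of -0.82 on FPKM, where 65.4% of all genes were negative with a median of -0.2. On rescaled FPKM 16 were negative with a median of -0.54, where 48.8% of all genes were negative with a median of 0.02, and 3 of the 19 were lower at an unadjusted p under 0.05, where 4.81% of all genes were. Complement C3 was at 1453 to 2845 in NC-chow, 2099 to 3081 in IVF-chow and 1839 to 3253 in FET-chow, which overlapped. Fgb, a fibrinogen chain, was at 814 to 1366, 1009 to 1562 and 404 to 843, and FET-chow lay below IVF-chow, as 6.01% of all genes did. Its fold change there was -0.94 (SE 0.4, limma adjusted p = 0.523).

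Of 10 negative acute phase genes, all passed the filter and 0 were called. In FET-chow against NC-chow 8 were negative with a median of -1.34, where 74.4% of all genes were negative with a median of -0.46. On rescaled FPKM the median was -0.71, where 53.6% of all genes were negative with a median of -0.06. The hepatocyte markers, which share Alb, Apoa1 and Ttr with this list, had 6 of 8 negative with medians of -1.52 and -0.9. Albumin (Alb) was at 63624 to 77238 rescaled FPKM in NC-chow, 43002 to 89363 in IVF-chow and 29180 to 63811 in FET-chow. Of 12 cytokines and receptors, 5 passed, and Il6 did not exceed 1.02 FPKM in any mouse. Of 17 signalling genes and transcription factors, 14 passed and 0 were called by limma in any comparison. In FET-chow against NC-chow 12 of the 14 were negative with a median of -0.78 on FPKM, and 10 with a median of -0.38 on rescaled FPKM. A pair of them with fold changes of opposite sign was chosen after the values were seen. Socs3, a feedback inhibitor of cytokine signalling, had a fold change of -1.49 (SE 0.58, limma adjusted p = 0.286) and Nfkbia, which encodes an inhibitor of NF-kB, one of 0.69 (SE 0.85, adjusted p = 0.788). On rescaled FPKM they were -1.15 and 1.28 (adjusted p = 0.268 and 0.211). Nfkbia was at 7.46, 8.79 and 7.89 FPKM in the NC mice, 2.27, 13.6 and 15 in the IVF mice and 9.96, 20.6 and 12 in the FET mice. Socs3 was at 3.66, 3.23 and 2.92 FPKM in the NC mice, 1.13, 0.468 and 2.62 in the IVF mice and 0.349, 0.492 and 0.718 in the FET mice. The C/EBP factor Cebpb was at 19.7, 25.3 and 16.3 FPKM in the NC mice, 2.99, 11.2 and 35.2 in the IVF mice and 13.3, 15 and 5.28 in the FET mice.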

How the data were processed

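RNA was extracted from whole liver with TRIzol and sequenced on an Illumina instrument. The deposited table holds 1 FPKM value per gene and mouse. The submitters' processing notes name FastQC 0.11.5, STAR 2.5.3a, StringTie 1.3.1c and DESeq2 1.16.1, without the role of each, and the genome build is not given in the sources used here. Gene identifiers matched GENCODE vM21 (GRCm38) for 55154 of 55335 genes. FPKM hold no counts, so log2(FPKM + 1) was tested with limma 3.58.1 in R 4.3.3 with an intensity trend, 1 fit over the 3 groups, genes with a mean of at least 1 FPKM and Benjamini-Hochberg adjustment over all 6755 of them. The fit was also run on simulated data with 200 genes changed by a log2 of 4, and no statement here rests on that run. The p-values measure the spread between these mice. All 9 genes are named, from the other lists those past the threshold or otherwise up to 4 with the highest mean FPKM, per tested gene the 3 genes most correlated on log2(FPKM + 1), and the paralogs Saa3 and Orm3. Genes outside this rule, the within-mouse ratios and the account of NC mouse 1 were chosen after their values were seen. The members and lists were chosen with earlier results of these data known. Promoters came from RefSeq for 7 of the 9 genes. Alternatives changed the pseudocount, the filter, the scaling, the samples in the fit and the replicate block.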

Additional observations from a re-analysis of the deposited data

How the results depend on the processing

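Of 330 alternative values for 24 fold changes, 290 kept their direction and their side of the threshold, 38 reversed and 2 passed the threshold. The 2 were Saa2 in FET-chow against NC-chow without NC mouse 5 and against NC mouse 1 alone, -5.5. Since Saa2 passed the filter only through NC-chow, these 2 lend no support to a difference. Reversals by median-ratio scaling were Orm1 at 0.185 in FET-chow against NC-chow, and 3 in IVF-chow against NC-chow, Orm1 at 0.11, Hp at 0.078 and Hpx at 0.12. By protein-coding rescaling Orm1, Hp and Hpx came to 0.317, 0.057 and 0.05 in FET-chow against NC-chow, Hp and Hpx to 0.078 and 0.029 in FET-chow against IVF-chow, and Orm1 and Hpx to 0.011 and 0.022 in the comparison of IVF with NC mice. By quantile normalization Saa2 came to 0.16 and Orm1 to -0.13 in FET-chow against IVF-chow. Against NC mouse 1 alone Orm2 was -0.23 in FET-chow and Saa4 -0.61 in IVF-chow. The cause was not tested.

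Leaving out each mouse gave, for FET-chow against NC-chow, -2.66 to -0.48 for Saa1, -3.18 to -0.39 for Saa2, -1.18 to -0.07 for Saa4, -1.25 to -0.1 for Hp, -1.08 to -0.06 for Hpx, -0.91 to 0.35 for Orm1 and -0.496 to 0.64 for Orm2. For IVF-chow against NC-chow it gave -2.1 to 0.081 for Saa1, -2.86 to -0.07 for Saa2, -3 to -0.56 for Apcs, -0.53 to 0.84 for Saa4, -1.17 to 0.68 for Orm1, -1.46 to 0.51 for Orm2, -0.99 to 0.46 for Hp and -1.23 to 0.68 for Hpx. For FET-chow against IVF-chow it gave -1.21 to 0.039 for Saa1, -0.83 to 0.14 for Saa2, -1.53 to -0.16 for Saa4, -1.01 to 0.84 for Orm1, -0.49 to 1.49 for Orm2, -1.04 to 0.404 for Hp, -1.27 to 0.64 for Hpx and -1.71 to 0.73 for Apcs.

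The number of genes called over the whole table moved too. From 16 in FET-chow against NC-chow it went to 0 without a filter and 0 with only the groups compared, 5 with a filter of 10 FPKM, 26 with median-ratio scaling, 6 against NC mouse 1 alone and 1 to 83 with a mouse left out. From 4 in IVF-chow against NC-chow it went to 2 with a filter of 10 FPKM and against NC mouse 1 alone, to 0 with a pseudocount of 0.1, no filter, only the groups compared and each scaling, and to 0 to 24 with a mouse left out. From 6 in FET-chow against IVF-chow it went to 0 without a filter and with only the groups compared, and to 0 to 10 with a mouse left out. With the mouse number as a replicate block it was 2. Same-numbered IVF and FET mice had residual correlations of -0.13, 0.02 and -0.26, against -0.14 to 0.29 for the other pairs. These few values show no pairing by number and cannot exclude one. The block changed no call of the 8 genes, of which 0 were called without it in this comparison. The estimated depth limits Saa1, Saa2 and Lcn2 in FET-chow most.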

Other observations

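The 3 genes most correlated with each other tested gene on log2(FPKM + 1) over the 9 mice all had r of 0.966 or more. They were Nus1, Cab39 and Calr for Saa4, Ndufa2, Psmb6 and Ndufb2 for Orm1, and Mdp1, Fam210b and Oplah for Orm2. They were Gcat, Eif3c and Unc119b for Hp, Ssr4, Psmb6 and Ndufb8 for Hpx, and Echdc2, Ugp2 and Mrpl36 for Apcs. On rescaled FPKM the first of them were Odc1 with Saa4 (0.93), Ndufa2 with Orm1 (0.96), Psmb10 with Orm2 (0.93), Tmem126a with Hp (0.94), Slirp with Hpx (0.93) and Oxld1 with Apcs (0.95). Ndufa2 of respiratory complex I was thus the closest gene to Orm1 on both scales. The points share library depth and protein-coding share, and the values are descriptions.

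Kupffer cell and macrophage markers, 8 in all, summed to 862 rescaled FPKM in FET mouse 2 and to 134 to 270 in the other 8 mice. Clec4f and Cd5l, at 370 and 403, made up most of it, while Cd68 was at 0 in FET mouse 2 and Vsig4 was at 14.9, below 32.7 and 64.2 in FET mice 3 and 4. FET mouse 2 was also the mouse with the highest Saa3, 61.1 rescaled FPKM against at most 22.7 elsewhere. The relation was not tested.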
